A study of Homo sapiens with 3 samples.

Results

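The NR4A receptors and the IER early genes were followed in PANC-1, an established human pancreatic cancer cell line, upon treatment with cantharidin or okadaic acid. The set holds 7 genes (NR4A1, NR4A2, NR4A3, IER2, IER3, IER5 and IER5L) out of 19699 genes that could be named on the arrays. Its members were chosen by family name, with earlier results of these data known. They were found by matching the transcript accession of each probe to a gene symbol. All 7 had a probe, 11 probes in total: NR4A2, NR4A3, IER3 and IER5L had 2 each and NR4A1, IER2 and IER5 had 1 each. RNA was hybridised to 3 arrays, with 1 array each for control cells, cells given cantharidin and cells given okadaic acid. The label of each treated sample gives 20 µM, although the treatment text states this dose before cantharidin only and may or may not extend it to okadaic acid. Treatment lasted 24 h. The labels enter none for the control without naming a vehicle. Both agents block protein phosphatase 2A (PP2A), which takes phosphate off kinases and transcription factors. Each group being a single array, there were no replicates and no test was run, so every difference below describes these arrays only. All arrays lay on 1 slide, and their position on it went with the group. In whole cultures, fewer cells making a transcript and less transcript per cell cannot be told apart.

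Immediate early genes are transcribed within minutes of a stimulus from factors already present in the cell, and their transcripts are usually short-lived. NR4A1 (Nur77), NR4A2 (Nurr1) and NR4A3 (Nor1) encode nuclear receptors without a classical ligand pocket, so the amount of protein made largely sets their activity. They bind DNA alone, and NR4A1 and NR4A2 also pair with retinoid X receptors. IER2, IER5 and IER5L encode related proteins that bind the B55 subunits of PP2A, and IER5 is known to bring this phosphatase to the heat shock factor HSF1. IER3 (IEX-1) is not related to them in sequence and is known as a target of NF-κB that interferes with cell death and with PP2A acting on ERK.

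Promoter sequence is shown for NR4A3, IER5 and IER5L because these members gave the largest difference under okadaic acid among the receptors, the largest among the IER genes and the only lower value. RefSeq windows on GRCh38.p14, which run from 250 bases before to 50 bases after a transcript start, were found for 5 of the members (NR4A1 with 2 windows, NR4A3, IER2, IER5 and IER5L). The stretches below end at or before the last base ahead of the start and are written on the strand of the gene. Capitals mark TGACG or its reverse complement CGTCA, the core of the cAMP response element (CRE) that CREB binds, TATAA, and GAANNTTC, an inverted repeat of the unit bound by heat shock factors.
NR4A3, chr9:99821755-99821884, plus strand: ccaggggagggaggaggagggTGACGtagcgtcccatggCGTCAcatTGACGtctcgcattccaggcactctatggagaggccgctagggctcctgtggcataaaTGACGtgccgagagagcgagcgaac
IER5, chr1:181088450-181088699, plus strand: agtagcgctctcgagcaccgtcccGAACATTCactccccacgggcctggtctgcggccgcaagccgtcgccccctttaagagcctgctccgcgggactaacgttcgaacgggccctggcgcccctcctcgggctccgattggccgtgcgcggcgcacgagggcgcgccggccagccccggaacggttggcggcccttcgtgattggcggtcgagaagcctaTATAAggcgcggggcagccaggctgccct
IER5L, chr9:129178412-129178511, minus strand: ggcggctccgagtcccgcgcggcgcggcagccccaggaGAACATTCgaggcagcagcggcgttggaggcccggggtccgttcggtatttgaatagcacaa

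The NR4A3 window held 4 copies of the CRE core, with first bases 109, 91, 83 and 25 bases before the start. Of 35116 windows, 24.6% held the core on either strand and 0.313% held at least 4 copies. The cut of 4 was taken from the NR4A3 window, the member window with the most copies, so this share is no test of it. Among the other members IER2 held 1 copy, 140 bases before its start. The full element TGACGTCA, which contains the core and occurred in 1.85% of all windows, was not present in any member window. IER5 and IER5L shared the letters GAACATTC, 226 and 212 bases before their starts, and 6.77% of all windows held GAANNTTC. That looser pattern was searched after the windows had been seen, so its share is no background for the shared letters. TATAA stood 29 bases before the IER5 start and in no other member window, against 20.4% of all windows on either strand. Neither NR4A1 window held any of these letters. These are matches of letters within a short window, and binding was not measured here.

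Intensity below is the background-subtracted brightness of a spot before scaling. The value after ± is the error that the scanner software modelled for that spot, which covers technical noise only. Each member probe had 1 spot. A spot counts as measured when the software marked it well above background. The dimmest measured spot had an intensity of 35.0 in control cells, 21.9 under cantharidin and 58.0 under okadaic acid, and saturation did not occur. Keratins KRT7, KRT8, KRT18 and KRT19 and the mesenchymal marker VIM, known in PANC-1, were well above background on all arrays. Of 9 markers of other cells, namely leukocytes, endothelium, fibroblasts and acinar cells, PECAM1 and CPA1 were below background on all arrays and COL1A1 was measured on the control array only. The other 6 (PTPRC, CD3E, CD14, CDH5, DCN and PRSS1) passed on all arrays, and their part in the results was not tested.

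**Figure D1:**
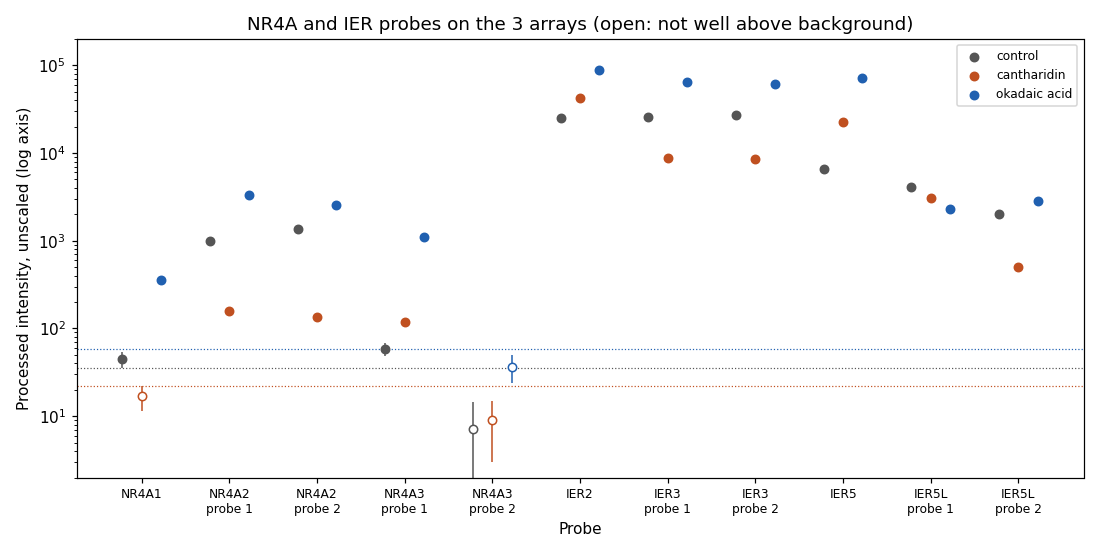
Processed intensity before scaling (log axis) of the 11 member probes on the array of each group, 1 spot each, with the modelled error as bars and each array's lowest measured signal as a dotted line; open points were not well above background, and the lower bar of the dimmest one runs off the axis. NR4A1 and NR4A3 sat near the dotted line in control cells, and okadaic acid gave the brightest spot for every measured probe except the first IER5L probe.

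Among the receptors, NR4A1 gave 44.6 ± 8.75 in control cells, 16.9 ± 5.43 under cantharidin and 356 ± 37.5 under okadaic acid. The control signal was 1.27 times the lowest measured signal of its array, and the cantharidin signal was not well above background. NR4A2, known for its role in dopamine neurons, gave 994 ± 99.7 in control cells, 159 ± 16.8 under cantharidin and 3306 ± 331 under okadaic acid with the probe used here. The other NR4A2 probe gave 1367 ± 137, 137 ± 15.4 and 2535 ± 254 in the same order. Both probes therefore ran from low under cantharidin through control to high under okadaic acid. NR4A3 gave 58.1 ± 9.95, 120 ± 13.2 and 1102 ± 111 with its brighter probe. Its control signal was 1.66 times the lowest measured one. The other NR4A3 probe, made for a different transcript, was below background throughout, with 7.22, 8.96 and 36.7, so no difference is given for it.

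Among the IER genes, IER2 gave 25060 ± 2506 in control cells, 42544 ± 4254 under cantharidin and 88921 ± 8892 under okadaic acid. IER5 followed the same order with 6534 ± 653, 22710 ± 2271 and 71688 ± 7169. IER3 differed from these in being lowest under cantharidin. Its values were 25759 ± 2576 in control cells, 8736 ± 874 under cantharidin and 64438 ± 6444 under okadaic acid, and the other IER3 probe gave 26901 ± 2690, 8586 ± 859 and 61916 ± 6192. The probes of IER5L did not show the same order. The brighter one gave 4102 ± 410, 3096 ± 310 and 2277 ± 228 in the order control, cantharidin, okadaic acid, and the dimmer one 1997 ± 200, 498 ± 50.2 and 2806 ± 281.

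The first comparison asked how the early genes stood after cantharidin. Values are log2 differences between arrays that had first been divided by their own 75th percentile, and a gene, taken at its brightest probe, was called at 1.5-fold. Under cantharidin, NR4A3, IER2 and IER5 were higher and NR4A1, NR4A2 and IER3 were lower, which makes 3 of 7 members called in each direction. Over 16644 genes compared, 27.5% were called higher and 34.1% lower. The median difference of the members was -0.27, and that of all genes was -0.16. The members split to both sides under this agent, and with 7 genes these counts are no result about the members as a group.

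IER5 stood furthest above control under cantharidin, at 3.83-fold higher (log2 difference 1.94 ± 0.20 modelled error). NR4A3 was 2.27-fold higher (1.19 ± 0.29), and IER2 was 1.87-fold higher (0.90 ± 0.20). NR4A2 was the member furthest below control, at 5.70-fold lower (-2.51 ± 0.21) on the probe used and 9.09-fold lower on the other. It held place 867 from the lowest among the genes compared.

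IER3 was 2.68-fold lower (-1.42 ± 0.20), with 2.85-fold lower on its other probe. NR4A1 was at least 1.85-fold lower, a bound set by the dim cantharidin signal. This call was lost with the normexp background correction, with -0.25 where the scaled signals gave -1.26. IER5L was at -0.27 ± 0.20 on the brighter probe and was 3.64-fold lower on the dimmer one, so the probe decides whether it is called.

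Okadaic acid was set against control in the same way. It gave higher signals for NR4A1, NR4A2, NR4A3, IER2, IER3 and IER5, 6 of 7 members, and a lower signal for IER5L. Among 16166 genes, 28.1% were called higher and 28.8% lower, or 36.6% and 22.4% without scaling. The median difference of the members was 1.57, against 0.01 over all genes. The control array is the one used above.

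NR4A3 stood 15.9-fold above control (3.99 ± 0.29), at place 169 among the genes compared. IER5 was 9.19-fold higher (3.20 ± 0.20), at place 362, and NR4A1 was 6.68-fold higher (2.74 ± 0.32). For the receptors with dim control signals the size depended on the background step, and normexp gave log2 differences of 2.79 for NR4A3 and 1.54 for NR4A1. NR4A3 was the highest member here, but IER5 was above it with normexp (3.18) and with the median over probes (3.20 against 3.04).

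IER2 was 2.97-fold higher (1.57 ± 0.20). NR4A2 was 2.79-fold higher (1.48 ± 0.20) on the probe used and 1.55-fold higher on the other. IER3 was 2.10-fold higher (1.07 ± 0.20), and its other probe gave 1.93-fold. IER5L was 2.15-fold lower on the brighter probe (-1.10 ± 0.20) and differed by 0.24 ± 0.20 on the dimmer one, and the median over its probes (-0.43) did not reach 1.5-fold.

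**Figure D2:**
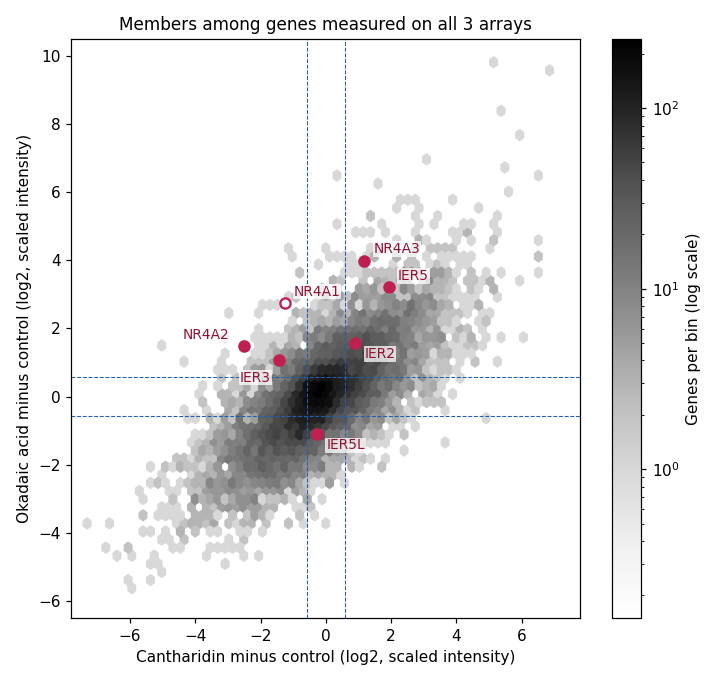
Log2 difference from control under cantharidin (horizontal) and okadaic acid (vertical) for genes measured on all 3 arrays, shaded by the number of genes per bin, with the members in red, NR4A1 open because it was not well above background under cantharidin, and dashed lines at 1.5-fold. Both axes share the control array, so the diagonal spread of all genes is not evidence of a shared change; NR4A1, NR4A2 and IER3 lay to the left of 0 and above it.

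Okadaic acid was then set directly against cantharidin, a comparison that does not use the control array. The same 6 members were higher under okadaic acid and IER5L was lower on its brighter probe. Of 16200 genes, 29.5% were called higher and 22.3% lower, or 47.1% and 13.9% without scaling. The median difference was 2.49 for the members and 0.13 for all genes. Among the receptors NR4A2 was 15.9-fold higher under okadaic acid (3.99 ± 0.21), at place 51 among the genes compared, and 14.1-fold higher on its other probe. NR4A1 was at least 12.4-fold higher on the processed signals, its cantharidin signal being below background. NR4A3 was 6.99-fold higher (2.81 ± 0.22). The normexp correction gave smaller log2 differences, of 1.80 for NR4A1 and 2.14 for NR4A3, and so the bound for NR4A1 holds for the processed signals only.

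Among the IER genes IER3 differed most between the agents, at 5.61-fold (2.49 ± 0.20) and 5.49-fold on its other probe. IER5 was 2.40-fold higher under okadaic acid (1.26 ± 0.20) and IER2 1.59-fold (0.67 ± 0.20). The IER2 difference was 0.52 when arrays were scaled to the median, which is short of 1.5-fold. For IER5L, the brighter probe was 1.79-fold lower under okadaic acid than under cantharidin and the dimmer probe 4.29-fold higher, so its direction between the agents was not settled. The IER5L transcript was the only member whose probes disagreed in direction.

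**Figure D3:**
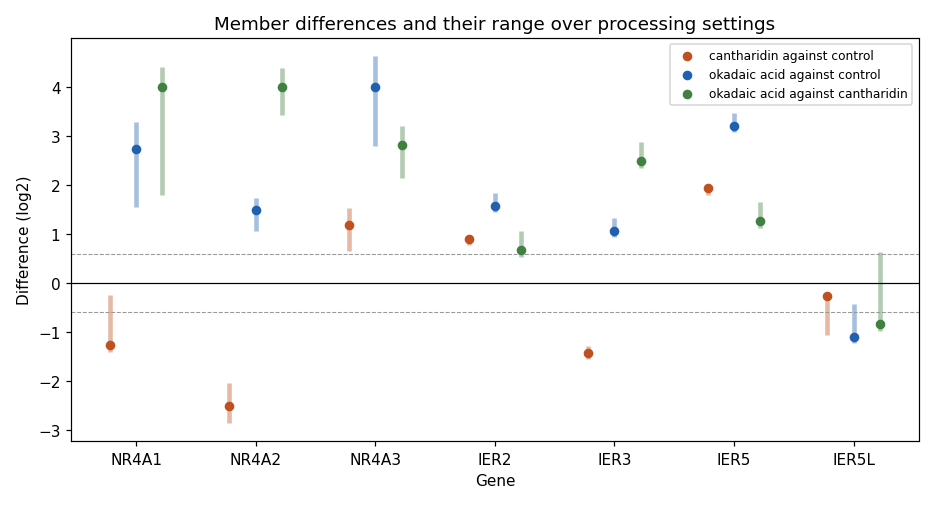
Log2 difference of each member (points, brightest probe) with the lowest to highest value over the processing settings tried (bars), for cantharidin against control, okadaic acid against control and okadaic acid against cantharidin; dashed lines mark 1.5-fold. In the direct comparison NR4A1 had the widest bar, and only the IER5L bar of the direct comparison crossed 0.

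The modelled errors can be set against replicate spots. Probes with 10 spots, less any flagged outlier spots, were taken within 1 log2 unit of the member's brightness. Their median SD between spots was 0.05 (log2) at the NR4A2 control signal and 0.20 at the NR4A1 control signal. At the IER5 signals it was 0.04 in control cells, 0.07 under cantharidin and 0.06 under okadaic acid. This was not looked up for the NR4A1 signal under cantharidin, which was not well above background. These SDs are for single arrays, whereas the errors given for log2 differences join both arrays of a pair. Variation between cultures was not measured.

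Genes with the most similar pattern were taken as those with the smallest distance to a member in the plane of its differences from control, over 3 arrays and 14222 genes measured on all of them. For NR4A2 the nearest were ABCC5 (-2.17 under cantharidin and 1.67 under okadaic acid) and GNB1L (-2.08 and 1.46). They lay 0.39 and 0.43 log2 units away. The other NR4A2 probe was at -3.18 and 0.64, so these neighbours hold for the probe used only. CXCL1 (1.22 and 4.09) and DLL1 (1.02 and 3.81) were nearest to NR4A3, at 0.11 and 0.24. GDF11 (-1.47 and 1.06) and GNAI3 (-1.48 and 1.08) were nearest to IER3, at 0.05 and 0.06.

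LINC03025 (1.98 and 3.24) and PRP4K (2.03 and 3.26) stood nearest to IER5, at 0.06 and 0.11. TASOR2 (0.89 and 1.56) and F8A1 (0.85 and 1.57) were nearest to IER2, at 0.02 and 0.05. Within 0.25 log2 units lay 104 genes for IER2 and 144 for IER5L. There were 22 for IER3, 12 for IER5, 3 for NR4A3 and 0 for NR4A2. On its brighter probe, IER5L had ANTXR2 (-0.27 and -1.11) and TUBGCP4 (-0.29 and -1.12) within 0.03. The dimmer IER5L probe was at -1.87 and 0.24, so these neighbours hold for the brighter probe only. Apart from those of NR4A2, the distances were below the modelled errors of the member's own differences. Which gene stood nearest was therefore not resolved. The comparisons share the control array, and this likeness is a description only.

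The receptors can be placed beside their partners. Of the retinoid X receptors, RXRA stood 3.10-fold below control with cantharidin and 2.04-fold below it with okadaic acid, and RXRB and RXRG were not called under either agent. RXRB was at -0.19 and -0.44 and RXRG at -0.41 and -0.42. Of the 42 other nuclear receptors, 36 could be compared under cantharidin, with 7 called higher and 15 lower, and 33 under okadaic acid, with 8 higher and 9 lower. Their medians were -0.48 and 0.07. Over all genes compared, 27.5% were called higher and 34.1% lower under cantharidin, and 28.1% and 28.8% under okadaic acid. With so few genes these counts are no result about the list. RORA, a receptor of the circadian loop, was 7.81-fold above control under cantharidin, the highest of the list, and 6.50-fold under okadaic acid. With normexp these log2 differences were 1.66 and 1.40 in place of 2.97 and 2.70, and NR2C2, an orphan receptor, was then highest under cantharidin at 2.55.

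The vitamin D receptor VDR was highest under okadaic acid at 8.23-fold above control (3.04, or 2.38 with normexp), against 3.63-fold under cantharidin. THRB, a thyroid hormone receptor, was lowest under cantharidin with a difference of -3.45 on its brightest probe, while another of its probes differed by -0.23. With normexp it was at -2.55, and NR2F6 (-2.88), the related receptor THRA (-2.87), NR2F2 (-2.64) and RARG (-2.61) were lower. NR1D2, a repressor of the circadian loop, passed below background under okadaic acid, at least 6.90-fold under its control signal. Its log2 difference was -1.64 with normexp against a bound of -2.79 on the processed signals. THRA was at -2.79 under okadaic acid on its brightest probe, and at -2.64 with normexp.

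**Figure D4:**
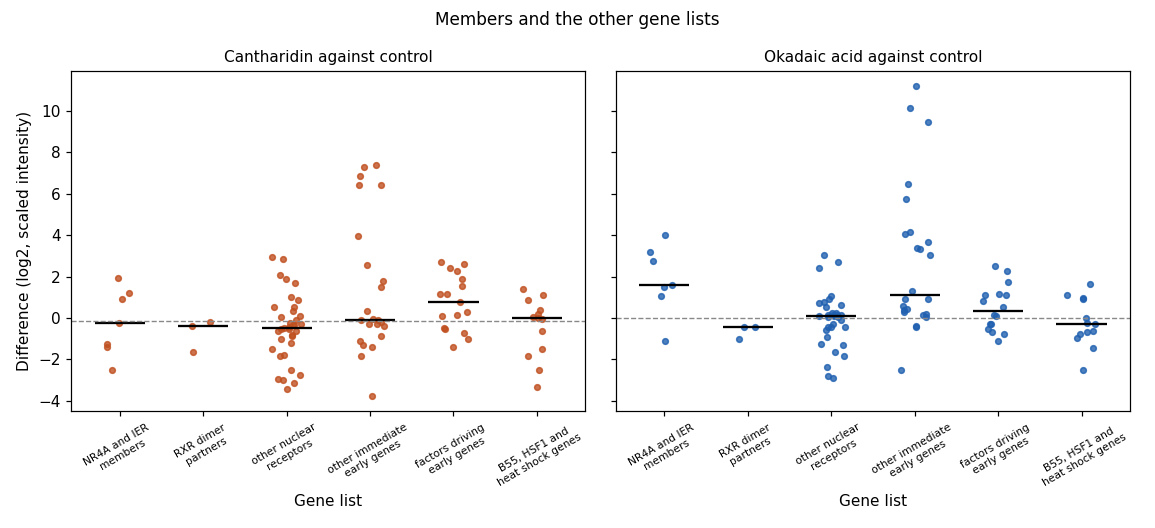
Log2 difference from control of single genes (points) under cantharidin (left) and okadaic acid (right) for the members and 5 other gene lists, with the median of each list as a black bar and the median of all genes compared as a dashed line; the signals of some genes were below background on 1 of the arrays. Under okadaic acid the medians were 1.57 for the members and 1.13 for the other immediate early genes.

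The other immediate early genes, 24 in number, were placed beside the members. This list, like the others here, was drawn up with earlier results of these data known. Its counts are therefore no result about the class. Under cantharidin 9 of 23 were called higher and 6 lower, with a median of -0.10. Under okadaic acid 15 of 24 were higher and 1 lower, with a median of 1.13. Set directly against cantharidin, okadaic acid gave 16 higher and 1 lower with a median of 1.18. Over all genes compared, 27.5% were higher and 34.1% lower under cantharidin, and 28.1% and 28.8% under okadaic acid. In the direct comparison these shares were 29.5% and 22.3%. EGR2 and EGR4, zinc finger factors of the EGR family, were not well above background in control cells. The same held for EGR3, which was measured under okadaic acid only. These genes entered the comparisons with control only through a treated array, which favours a call as higher. They are among the genes counted higher above, EGR3 only where okadaic acid was compared. Counts and medians without them were not computed. EGR2 exceeded control at least 36.0-fold with cantharidin and at least 242-fold with okadaic acid, and EGR4 at least 93.9-fold and at least 1414-fold. These bounds hold for the processed signals, and normexp gave log2 differences of 3.76 and 6.44 for EGR2 and of 4.88 and 8.72 for EGR4. With normexp under cantharidin, EGR2 was below ATF3 (6.43 on its brightest probe), EGR1 (6.39), ARC (6.01) and FOSB (3.96). ATF3, EGR1, ARC and FOSB were well above background on all arrays at the probes used. Measured ATF3 probes ran from -0.15 to 6.41 (log2) under cantharidin on the processed signals. MYC, a driver of growth, was lower with both agents, 13.6-fold with cantharidin and 5.69-fold with okadaic acid.

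DUSP2, a phosphatase of MAP kinases, stood lower under cantharidin (-1.42) and higher under okadaic acid (1.32), as NR4A1, NR4A2 and IER3 did. CCN1, a secreted matrix protein, was likewise at -1.84 and 0.93. DUSP1, another MAP kinase phosphatase, was at -1.30 and 0.59, and the latter was 0.47 when arrays were scaled to the median.

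The next list held factors that drive early genes. Of 17 genes compared under cantharidin, 9 were called higher and 3 lower, with a median of 0.79. Okadaic acid gave 7 of 16 higher and 3 lower with a median of 0.34. The shares over all genes were 27.5% higher and 34.1% lower under cantharidin, and 28.1% and 28.8% under okadaic acid. EP300, an acetyltransferase that works with CREB, stood highest, at 6.42-fold above control with cantharidin and 5.74-fold with okadaic acid. With normexp it was at 2.16 and 1.93 (log2), below MEF2A, a factor of the MADS box family. MRTFB, a coactivator of SRF, was lowest at 2.68-fold and 2.16-fold lower. ATF1, a relative of CREB, was 2.01-fold lower with cantharidin and 2.14-fold higher with okadaic acid. CREB1 was well above background on the cantharidin array only, the array with the dimmest measured spot (21.9). Its intensity was 27.8 in control cells and 28.1 under cantharidin, and was highest under okadaic acid. The CREB1 log2 difference under cantharidin was 0.16, short of 1.5-fold.

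The IER5-related list held B55 subunits of PP2A, HSF1, heat shock genes and CDC25B, with 13 genes matched. Under cantharidin 3 were higher and 5 lower (median -0.02), and under okadaic acid 4 were higher and 6 lower (median -0.31). All genes compared gave 27.5% higher and 34.1% lower under cantharidin, and 28.1% and 28.8% under okadaic acid. HSF1 was 2.64-fold higher under cantharidin and at -0.31 under okadaic acid. PPP2R2A, the B55 alpha subunit, was 1.81-fold higher with cantharidin and 1.71-fold lower with okadaic acid, and the latter was at -0.52 without scaling. HSPH1, a heat shock chaperone, was highest under okadaic acid at 3.08-fold above control, and stood at 0.36 under cantharidin.

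HSPA1A, which encodes an inducible Hsp70 and shares nearly all its sequence with HSPA1B, was at -0.61 and 1.09. Its cantharidin value was close to the threshold and missed it in 3 of 6 scalings and background corrections. CDC25B, a phosphatase that activates CDK1 at mitotic entry, stood lowest, at 10.3-fold below control with cantharidin and 5.73-fold with okadaic acid.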

How the data were processed

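The authors deposited spot intensity values of 3 Agilent 1-colour arrays, written by the scanner software Feature Extraction (11.0.1.1) with hg19 annotation. Background had been subtracted and spatial trends removed per the file headers, and further deposited columns were flags. The authors also deposited a normalized log2 table, whose making is not given in the sources used here. The arrays shared 1 slide and 1 scan, so a batch could not be tested. Spots with outlier flags were dropped and the log2 intensity of the others averaged, giving 34041 probes, and each array's 75th percentile was subtracted. RefSeq accessions named 25705 probes. A gene was read at its brightest probe (highest mean over the arrays) and compared where either array of a pair measured it. Bounds set a dim signal to the higher of itself and the lowest measured signal of its array. Precision is limited by having so few arrays.

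Named genes were the members, the 2 genes nearest to each, and per list the largest, the smallest and the opposite calls. The members and lists were chosen with earlier results of these data known. GAANNTTC was searched after the windows had been seen. PPP2R2B was not analysed here, having no matched probe, and 1 cell type marker is not reported here. The alternatives, 11 in number, changed background correction (normexp, offset 50, on median spot intensity), scaling, filter, threshold, probe summary or source. The counting step was tested on simulated data. Calculations were done in Python 3.11.15 (pandas 2.3.3, numpy 2.4.6), figures in matplotlib 3.10.9 and normexp in limma 3.58.1 under R 4.3.3.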

Additional observations from a re-analysis of the deposited data

Results flagged for a closer look

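Against the same control array, 3 members were at least 1.5-fold lower with cantharidin and at least 1.5-fold higher with okadaic acid. The difference was not tested. Of all genes compared, 34.1% were called lower with cantharidin and 28.1% higher with okadaic acid. The share of genes with both calls was not computed, so this count is no result about the members as a group. NR4A1 stood 4.00 (log2) higher under okadaic acid than under cantharidin, or at least 3.63 with its dim cantharidin signal at the array floor, and 1.80 with the normexp background correction, where its cantharidin value (-0.25 against control) was not called. For NR4A2 the difference was 3.99, and its other probe gave 3.82. For IER3 it was 2.49, with 2.46 on the other probe.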

How the results depend on the processing

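The call of IER5L was the least stable. When the probes of a gene were summarised by their median, 0 members were at least 1.5-fold lower under okadaic acid than in control cells, and 0 were lower than under cantharidin, where the IER5L difference turned to 0.63 from -0.84. The latter count was also 0 without scaling and at a 2-fold threshold. The other counts of members stayed within 1.5 times the values given, under each of the 11 alternatives. Under cantharidin the count of lower members was 2 with normexp or when only genes measured on all 3 arrays were kept, since NR4A1 dropped out, and 4 with the median over probes. For single members, 136 differences moved by less than the modelled spot error, 31 moved by more in the same direction, and 1 reversed. These totals leave out the filter and threshold alternatives. Some of the 136 could not move. The median over probes cannot change a gene with 1 probe, and the array floor cannot change a measured signal. Scaling shifted all genes: without it, their median difference was -0.30 for cantharidin, 0.26 for okadaic acid and 0.52 between the agents, and scaling to the median gave -0.13, -0.11 and -0.02. The dim control signals of NR4A1 and NR4A3 limit how well their folds are known. No paired analysis was possible because each group had 1 array.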
